A study of Homo sapiens with 12 samples.

Results

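The 44 genes described here build, start or license the machinery that copies DNA, or control the passage from the G1 phase into DNA synthesis. They were chosen by name, with earlier results of these data known, so their counts against all genes are a description. They were matched by current symbol in the platform annotation of an Affymetrix array, and stand beside 19775 genes measured in all. Each gene was read from 1 probe set, the most intense over the 12 arrays among those that name exactly 1 gene, and all 44 had one. The arrays came from L3.6pl and FG, 2 human pancreatic carcinoma cell lines, and L3.6pl was obtained by selecting metastatic cells in nude mice. The 4 groups were L3.6pl in hypoxia, L3.6pl in normoxia, FG in hypoxia and FG in normoxia, with 3 arrays each. Cells of every group were plated from frozen stock without passaging and grown in serum-containing medium to about 80% confluence, which usually took 9 days. Hypoxic flasks spent the last 24 h at 1% oxygen, with nitrogen in place of air, and normoxic flasks were left untreated. The labels number the arrays of a group 1 to 3 without saying that these were separate cultures, so p-values measure the spread between these arrays, which may be technical.

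DNA replication starts when the origin recognition complex, CDC6 and CDT1 load the ring-shaped MCM helicase onto DNA, a step called licensing. At the start of S phase the kinase pair CDC7 and DBF4 and the cyclin-dependent kinases activate the loaded helicase by adding CDC45 and the GINS complex, and polymerases, primase, the PCNA clamp and its loader then copy the strands. Cyclins D and E release the E2F transcription factors from the retinoblastoma protein, and E2F sites lie in the promoters of many replication genes, whose transcripts peak around the G1/S transition in cycling cells. In a bulk culture, fewer cells around S phase and less RNA of these genes in each cell cannot be told apart.

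Promoter windows from RefSeq, of assembly GRCh38.p14 and running from 250 bases before to 50 bases after each gene's start, were found for 38 of the 44 genes. Letters of an E2F site were searched as TTTCCCGC, TTTCGCGC, TTTGCCGC and TTTGGCGC on both strands, and overlapping matches were each counted. The windows of ZNF367, POLA1, MCM3 and CCNE1 are printed because the first 3 had the smallest adjusted p in L3.6pl hypoxia and CCNE1 fell in FG hypoxia, and E2F letters are in capitals.
ZNF367 (chr9:96418321-96418620, minus strand): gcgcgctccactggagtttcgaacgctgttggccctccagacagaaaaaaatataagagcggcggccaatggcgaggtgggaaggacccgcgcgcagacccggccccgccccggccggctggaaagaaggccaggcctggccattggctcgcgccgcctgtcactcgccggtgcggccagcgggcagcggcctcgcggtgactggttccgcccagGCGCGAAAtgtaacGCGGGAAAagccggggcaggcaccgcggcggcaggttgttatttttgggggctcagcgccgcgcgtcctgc
POLA1 (chrX:24693668-24693967, plus strand): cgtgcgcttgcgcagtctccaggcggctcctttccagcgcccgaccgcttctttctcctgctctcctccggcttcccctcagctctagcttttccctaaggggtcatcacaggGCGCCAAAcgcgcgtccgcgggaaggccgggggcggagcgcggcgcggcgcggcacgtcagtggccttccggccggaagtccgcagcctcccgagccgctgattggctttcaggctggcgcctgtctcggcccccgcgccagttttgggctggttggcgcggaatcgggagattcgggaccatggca
MCM3 (chr6:52284693-52284992, minus strand): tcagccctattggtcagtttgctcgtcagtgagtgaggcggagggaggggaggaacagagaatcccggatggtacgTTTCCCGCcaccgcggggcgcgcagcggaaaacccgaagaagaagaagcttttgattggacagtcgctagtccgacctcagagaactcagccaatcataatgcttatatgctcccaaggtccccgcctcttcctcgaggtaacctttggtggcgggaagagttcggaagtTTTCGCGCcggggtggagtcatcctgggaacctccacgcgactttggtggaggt
CCNE1 (chr19:29811741-29812040, plus strand): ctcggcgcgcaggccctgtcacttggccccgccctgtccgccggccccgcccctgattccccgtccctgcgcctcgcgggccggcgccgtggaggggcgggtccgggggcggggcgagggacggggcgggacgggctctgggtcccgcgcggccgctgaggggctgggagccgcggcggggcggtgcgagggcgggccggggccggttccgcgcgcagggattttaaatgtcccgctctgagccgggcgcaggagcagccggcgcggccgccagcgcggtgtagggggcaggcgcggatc
ZNF367 held 2 matches, at -35 and -21 from its start, POLA1 held 1 at -137, MCM3 held 2 at -174 and -4, and CCNE1 held none of these letters in its window.

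Shorter stretches around the matches are given for 7 more genes whose values are described array by array, again with the E2F letters in capitals.
MCM2 (chr3:127598403-127598434, plus strand): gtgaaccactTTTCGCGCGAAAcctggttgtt
CDC6 (chr17:40287876-40287903, plus strand): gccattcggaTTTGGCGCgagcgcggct
CDT1 (chr16:88803744-88803771, plus strand): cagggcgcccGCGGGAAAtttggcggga
PCNA (chr20:5126664-5126691, minus strand): agcgtcagggGCGGGAAAaggcgtgcgt
UHRF1 (chr19:4909477-4909504, plus strand): ccgagttttcGCGGGAAAaaaatcagag
E2F1 (chr20:33686388-33686428, minus strand): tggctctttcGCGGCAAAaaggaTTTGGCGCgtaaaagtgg
E2F2 (chr1:23531258-23531285, minus strand): cggcacgacgTTTGGCGCtaaaaaaaaa
In MCM2 a match on each strand overlapped just after the start, at 2 and 6, and E2F1 carried 2 matches in its own promoter, at -33 and -20.

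E2F letters stood in 20 of the 38 promoters of the replication and G1/S genes (52.6%), against 908 of all 27305 promoters in the RefSeq table (3.33%) and 4.36% of the promoters of genes measured on the arrays. Of 27 further replication genes, 6 held them (22.2%), and of 24 mitosis genes, 3 did (12.5%). The CCAAT box, searched as CCAAT on both strands, was about as common as E2F letters among the replication and G1/S genes (20 of 38), against 35.7% of all promoters. The CHR element, searched as TTTGAA and TTCGAA on both strands and known from promoters of genes expressed in late cell cycle phases, stood in 3 of 38 (7.89%), against 18 of 24 mitosis genes (75.0%) and 16.6% of all promoters. Matches describe the letters of these windows and say nothing of binding.

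**Figure D1:**
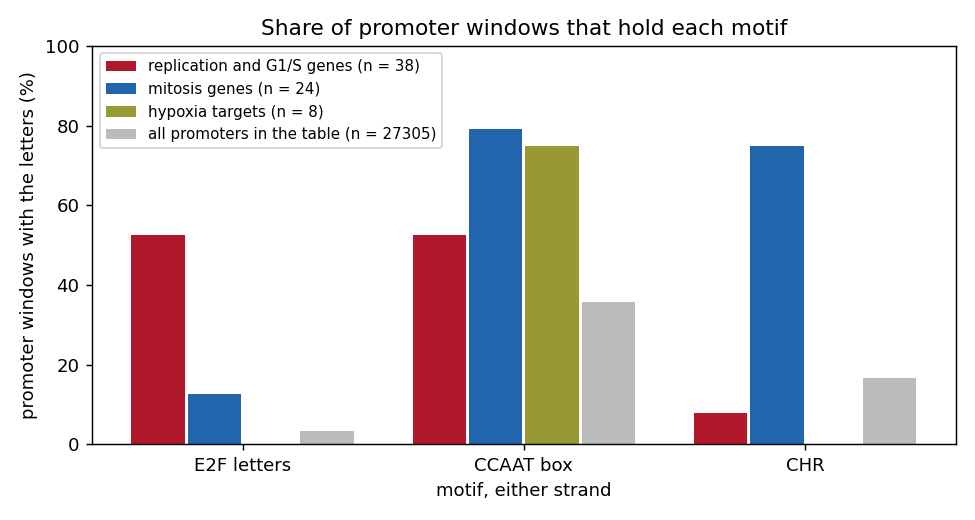
Share of promoter windows (percent, 250 bases before to 50 after the start) that hold E2F, CCAAT or CHR letters, for the replication and G1/S genes, further gene lists and all promoters. E2F letters reach 52.6% in the replication and G1/S genes against 3.33% of all promoters, and CHR letters reach 75.0% in mitosis genes.

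The deposited values are RMA intensities, and all levels below are their log2, while changes are differences of log2 group means with limma's standard error. Median array intensities ran from 39.1 to 41.4, and precision is limited by the number of arrays. Targets of the hypoxia-inducible factors followed the oxygen labels, with 8 of 9 called higher in hypoxia in each line. ADM, which codes for adrenomedullin, had 11.83, 11.82 and 11.09 in L3.6pl hypoxia, against 7.92, 7.70 and 7.94 in L3.6pl normoxia, and 12.17, 12.48 and 12.06 in FG hypoxia, against 6.65, 8.32 and 8.0 in FG normoxia. Epithelial markers (KRT7, KRT8, KRT18, KRT19, EPCAM and CDH1) lay between 9.09 and 13.59 on every array. Of 15 measured markers of other cell types, 13 stayed at or below 8.52 on every array, and the fibroblast collagens COL1A1 and COL3A1 reached 11.41 and 11.85, in carcinoma lines that should lack fibroblasts. COL3A1 lay at 5.95, 5.46 and 5.67 in L3.6pl hypoxia and at 10.26, 10.55 and 11.06 in FG hypoxia, a line difference whose part in the results was not tested. None of the 15 markers was called in hypoxia against normoxia in either line, and 2 in each line had an unadjusted limma p below 0.05. COL1A1 nevertheless lay higher in FG hypoxia without overlap, at 11.41, 11.01 and 10.32 against 10.10, 9.60 and 9.50 in FG normoxia (1.18 ± 0.36, limma adjusted p = 0.0626), and PECAM1, an endothelial gene, was at 0.78 in L3.6pl and 0.48 in FG, uncalled. Of the epithelial markers, CDH1, which codes for E-cadherin, rose by 1.26 in L3.6pl hypoxia (limma adjusted p = 0.0375) and was at 0.55, uncalled, in FG. The part of these markers in the hypoxia results was not tested.

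On several arrays the replication and G1/S genes lay together above or below the rest of their own group. Level here means the median over the 44 genes of log2 intensity, each gene centred on its mean over the 12 arrays. In replicate order, L3.6pl hypoxia had levels of -0.39, -0.91 and -0.03, and L3.6pl normoxia had 0.17, 0.90 and 1.01. FG hypoxia had levels of -0.05, -0.65 and -0.65, and FG normoxia had -0.68, 0.50 and 0.79. The groups of L3.6pl did not overlap, while the first FG normoxia array lay as low as the FG hypoxia arrays. Mean levels were -0.44 in L3.6pl hypoxia and 0.69 in L3.6pl normoxia, and -0.45 in FG hypoxia and 0.20 in FG normoxia, with a pooled SD within groups of 0.53.

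**Figure D2:**
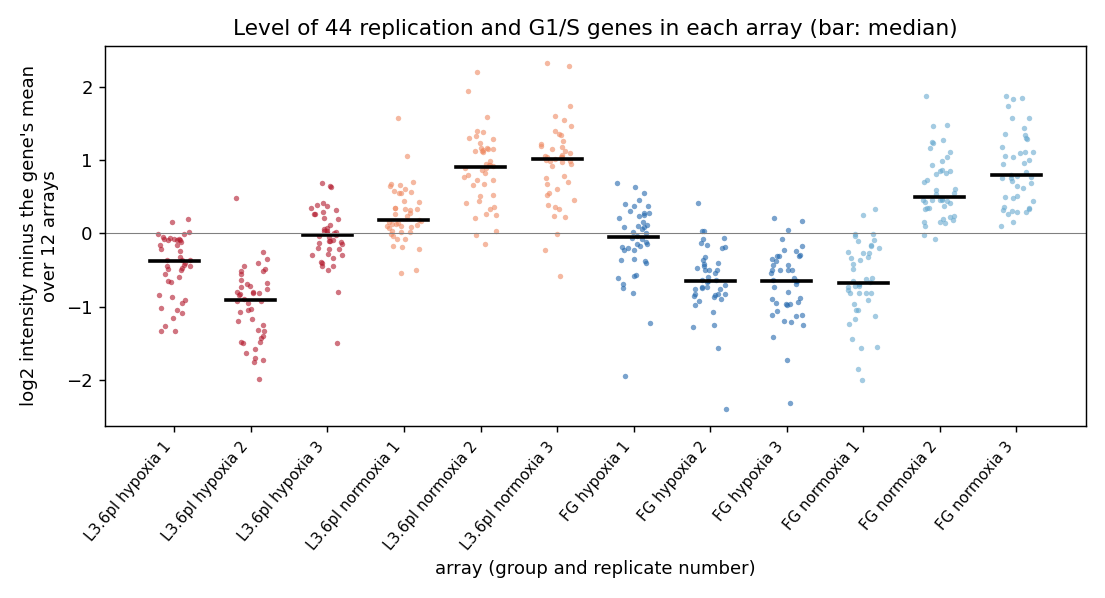
Level of the replication and G1/S genes on each array (median of centred log2 intensity over 44 genes), by group, with the replicate marked. FG normoxia replicate 1 lies at -0.68, below both other FG normoxia arrays at 0.50 and 0.79.

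FG normoxia replicate 1 was below both other arrays of its group in 43 of the 44 genes (97.7%), against 41.6% of all genes, with a median difference of -1.38 from the mean of the others. It was more than 1 log2 unit below them in 31 of 44 (70.5%), against 3.19% of all genes. L3.6pl normoxia replicate 1 was below both others of its group in 42 of 44 (95.5%), against 42.5% of all genes, with a median difference of -0.67. Among the hypoxic arrays, L3.6pl hypoxia replicate 2 was the lowest of its group in 40 of 44, against 42.5% of all genes, and FG hypoxia replicate 1 the highest of its group in 41 of 44, against 32.7% of all genes. L3.6pl hypoxia replicate 3 was the highest of its group in 33 of 44, against 55.7% of all genes. Arrays within a group thus differed for nearly the whole gene set at once, so that the genes are not independent of each other.

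The first FG normoxia array lay above all 3 FG hypoxia arrays for 7 of the 44 genes (CDC7, POLD3, PCNA, FEN1, CCNE1, E2F2 and ZNF367), within their range for 19 and below all 3 for 18. Those are 15.9%, 43.2% and 40.9% of the 44, while the same array lay above for 34.4%, within for 34.4% and below for 31.2% of all genes. The 30 mitosis genes went further, and all 30 were below every FG hypoxia array on it. TOP2A, the mitotic topoisomerase, had 11.85, 11.27 and 11.68 in FG hypoxia, against 9.77, 11.98 and 11.74 in FG normoxia. Of the hypoxia targets, 8 of 9 were below every hypoxia array of the same line on the first normoxia array of each line. The exception was VEGFA, at 12.32, 12.69 and 11.64 in L3.6pl hypoxia against 12.40, 11.45 and 11.11 in L3.6pl normoxia, and at 12.13, 12.31 and 12.13 in FG hypoxia against 12.16, 11.00 and 10.15 in FG normoxia. RNA quality of these arrays was not given in the sources used here, and what set them apart was not tested.

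**Figure D3:**
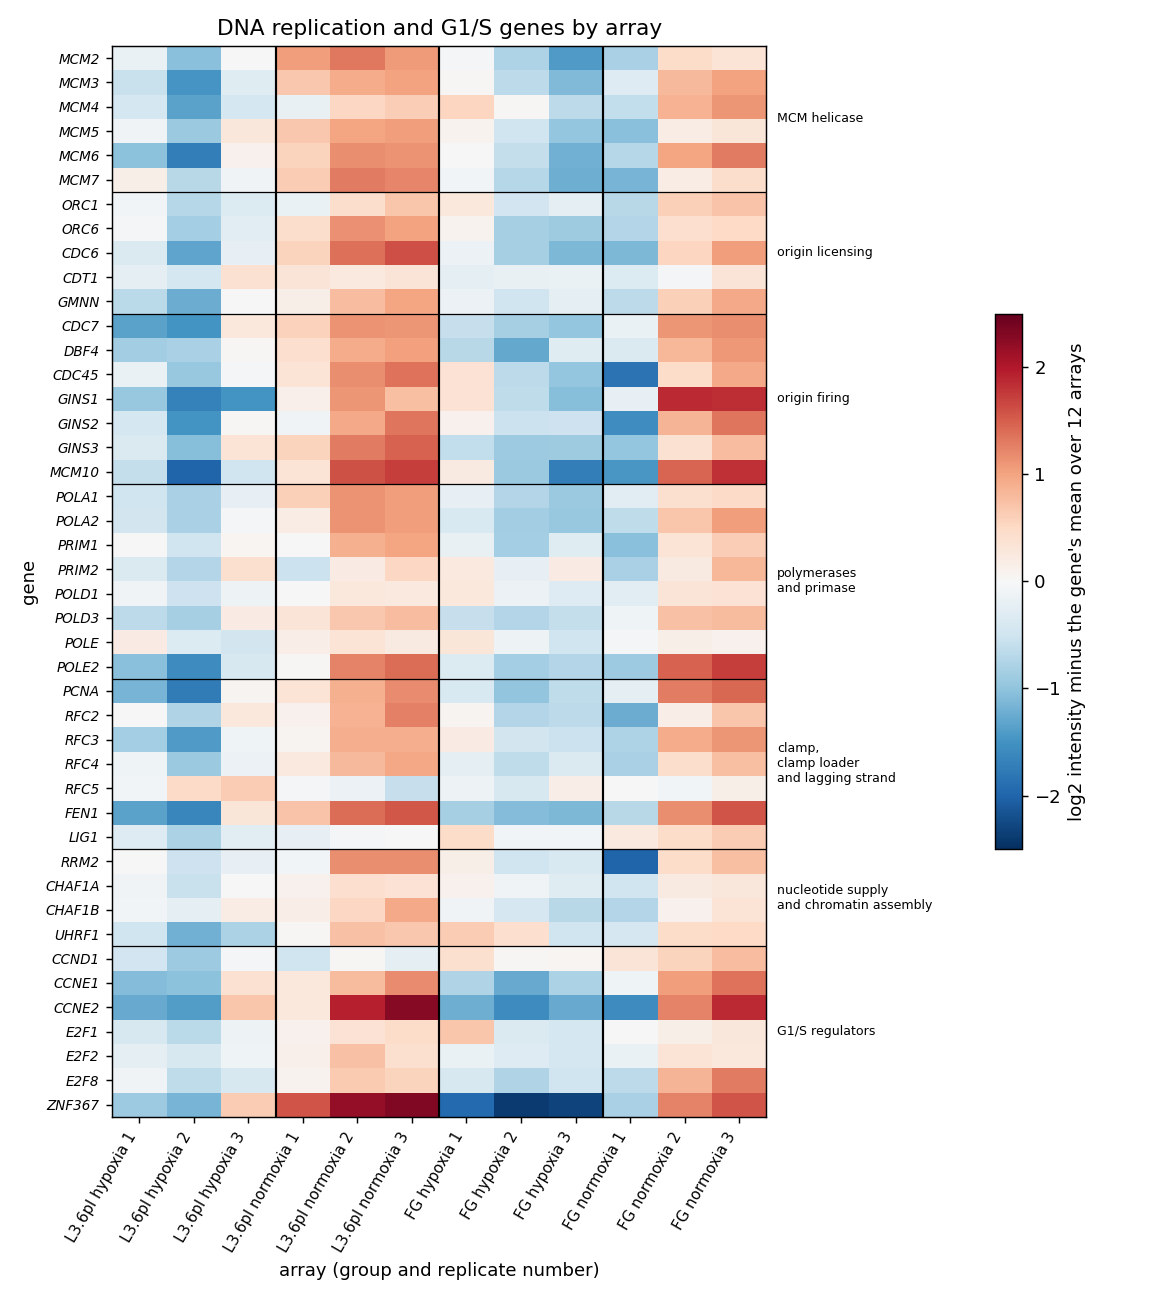
Log2 intensity of each of the 44 genes on each of the 12 arrays, centred on the gene's mean, with genes in rows by role and arrays in columns by group. The normoxia replicates 1 of both lines are paler or lower than their group across nearly all rows, with FG normoxia replicate 1 the lower of the pair.

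In L3.6pl, 8 of the 44 genes fell in hypoxia and 0 rose, at an adjusted p below 0.05 in limma over all 19775 genes. Those 8 were POLA1, ZNF367, MCM3, CDC7, E2F2, UHRF1, MCM2 and GINS1. By comparison, 2.97% of all genes were called lower, 3.89% higher and 6.86% in either direction. At an unadjusted limma p below 0.05, 29 were lower and 1, RFC5, was higher. For counts at an unadjusted p, here and elsewhere, the share of all genes is not given, so they have no background. The change was below 0 in 43 of 44, with a median of -1.26 against -0.02 over all genes. The 2 groups' arrays did not overlap, with hypoxia lower, in 31 of 44 genes, against 12.8% of all genes. How many calls are made rests on single arrays. With 1 array left out in turn, POLA1 was called in 12 of 12 fits, ZNF367 in 7 and MCM3 in 6. MCM2 and UHRF1 were called in 4 each, CDC7 and E2F2 in 3 each, and GINS1 in 2. Leaving out FG normoxia replicate 1 gave 25 calls and L3.6pl hypoxia replicate 3 gave 15, while leaving out L3.6pl hypoxia replicate 2 or L3.6pl normoxia replicate 2 or 3 gave 1 each. Leaving out L3.6pl hypoxia replicate 1 or FG hypoxia replicate 2 gave 2, of which the first includes 1 higher call. Leaving out L3.6pl normoxia replicate 1 or FG normoxia replicate 2 gave 3, FG normoxia replicate 3 gave 4 and FG hypoxia replicate 3 gave 5.

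In FG, 3 of the 44 genes fell in hypoxia, ZNF367, POLD3 and CCNE1, and 0 rose. Of all genes, 6.47% were called lower, 4.24% higher and 10.7% in either direction, so a share of 3 of 44 lower is near the background. At an unadjusted limma p below 0.05, 14 were lower and 0 higher, again without a share of all genes beside them. The change was below 0 in 41 of 44 genes, with a median of -0.56 against -0.03 over all genes. Leaving out 1 array moved that median between -1.07 (FG normoxia replicate 1 left out) and -0.31 (FG normoxia replicate 3 left out). Arrays of the groups did not overlap, with hypoxia lower, in 7 of 44, against 17.1% of all genes. Those 7 are, as they must be, the genes named above that the first FG normoxia array held above all FG hypoxia arrays. Without FG normoxia replicate 1 the count was 20 and without L3.6pl hypoxia replicate 3 it was 7, while it was 0 without FG hypoxia replicate 2 and 1 without FG hypoxia replicate 3 or FG normoxia replicate 2 or 3.

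Without both normoxia replicates 1, 34 of the 44 genes were lower in L3.6pl hypoxia and 23 were lower in FG hypoxia, and 0 were higher in either line. Over all genes, that fit called 5.65% lower and 5.29% higher in L3.6pl, and 6.95% lower and 4.69% higher in FG. The choice of these 2 arrays was made with their values known, and they hold the lowest normoxia values of most of these genes, so removing them widens the difference by construction. The number of calls also moves with the estimate of the spread, which all groups share. Leaving out FG normoxia replicate 1 alone, which enters the L3.6pl comparison only through that estimate, added calls for 17 genes there. Leaving out L3.6pl normoxia replicate 1 alone lost the calls of 5 genes in L3.6pl. All 23 genes called in FG were among the 34 called in L3.6pl. The further 11 in L3.6pl were MCM2, MCM4, MCM7, ORC1, ORC6, GMNN, CDC45, GINS2, RFC2, CHAF1B and UHRF1, and the 10 called in neither line were MCM5, CDT1, PRIM2, POLD1, POLE, RFC5, LIG1, CHAF1A, CCND1 and E2F1. The median change was -1.49 in L3.6pl and -1.07 in FG, and the change in FG was then below 0 in 44 of 44.

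**Figure D4:**
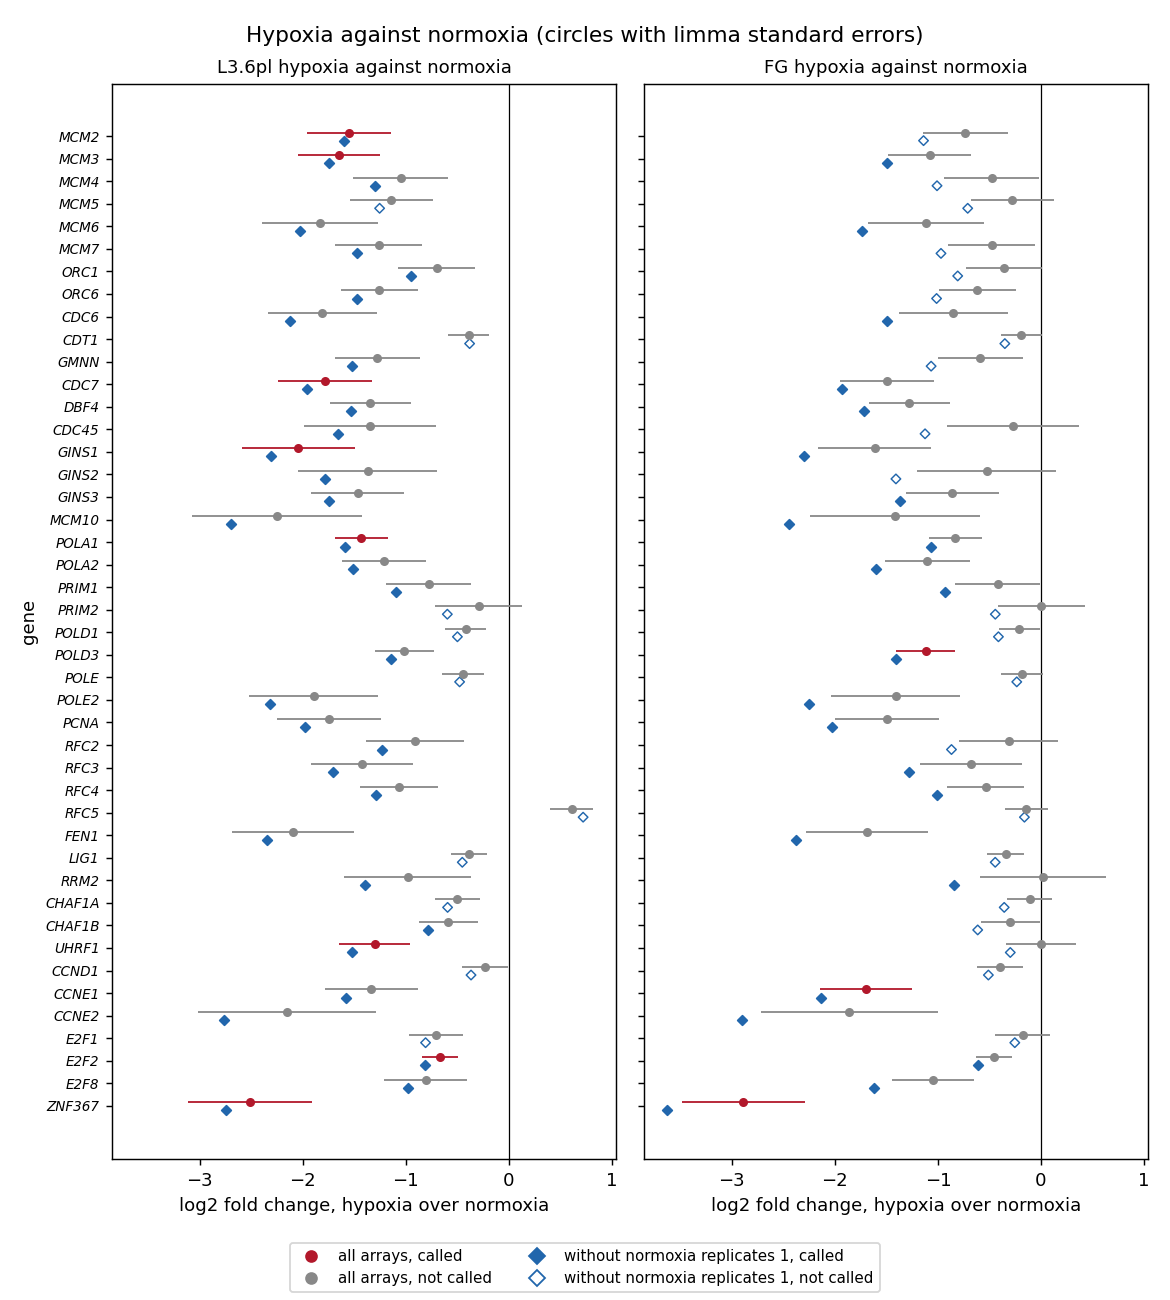
Log2 change in hypoxia against normoxia for each of the 44 genes, in L3.6pl and in FG, with circles for all arrays (± standard error, red where called) and diamonds for the fit without both normoxia replicates 1 (filled where called). Most genes lie below 0 in both lines, and ZNF367 lies lowest with all arrays, at -2.51 in L3.6pl and -2.89 in FG.

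Among the G1/S regulators, ZNF367, a zinc finger protein, changed most. Its log2 intensities were 5.47, 5.22 and 7.01 in L3.6pl hypoxia, against 7.96, 8.58 and 8.70 in L3.6pl normoxia, and 4.43, 3.99 and 4.07 in FG hypoxia, against 5.57, 7.63 and 7.95 in FG normoxia. Neither pair of groups overlapped. ZNF367 fell 5.71-fold in L3.6pl hypoxia (log2 change -2.51 ± 0.60, limma adjusted p = 0.0303) and 7.40-fold in FG hypoxia (-2.89 ± 0.60, limma adjusted p = 0.0117). Of all 19775 genes it had the lowest measured log2 change in both lines. Its mean of 4.16 in FG hypoxia is below 4.30, the 20th percentile of all values, and near PTPRC, a leukocyte gene, at 4.34, 4.52 and 4.41 on the same arrays. No detection limit is given, so the FG fold rests on a dim signal and is best read as a lower limit. With 1 array left out in turn it was called under 7 of 12 settings in L3.6pl and 11 of 12 in FG, and in FG it missed without FG hypoxia replicate 2 (limma adjusted p = 0.0519).

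Cyclin E, the partner of CDK2 that drives entry into S phase, is coded by CCNE1 and CCNE2. CCNE1 had 6.65, 6.14 and 6.59 in FG hypoxia, against 7.29, 8.44 and 8.75 in FG normoxia, where groups did not overlap and it fell by 1.70 on the log2 scale (limma adjusted p = 0.0353). Its values were 6.30, 6.36 and 7.77 in L3.6pl hypoxia, against 7.66, 8.19 and 8.58 in L3.6pl normoxia, where hypoxia replicate 3 overlapped normoxia (change -1.33 ± 0.45, limma adjusted p = 0.108). CCNE2 had 4.98, 4.85 and 6.94 in L3.6pl hypoxia, against 6.52, 8.19 and 8.53 in L3.6pl normoxia, and 5.03, 4.68 and 4.99 in FG hypoxia, against 4.68, 7.49 and 8.12 in FG normoxia. Its changes of -2.15 ± 0.86 in L3.6pl and -1.86 ± 0.86 in FG were large but so was the spread, with limma adjusted p = 0.176 and 0.224. The first normoxia array and L3.6pl hypoxia replicate 3 stand out for this gene. CCNE2 was called in both lines without both normoxia replicates 1, at -2.76 in L3.6pl and -2.90 in FG, the lowest change of all genes in L3.6pl and the second lowest in FG. On the FG hypoxia arrays CCNE2 lay near VWF, an endothelial gene, at 4.80, 4.65 and 4.71. L3.6pl hypoxia replicates 1 and 2, at 4.98 and 4.85, were as dim for CCNE2, so the size of its changes rests on a dim signal.

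The activator E2F2 was lower in hypoxia by a small step, with 6.22, 6.05 and 6.35 in L3.6pl hypoxia, against 6.58, 7.18 and 6.84 in L3.6pl normoxia (change -0.66 ± 0.17, limma adjusted p = 0.0467, no overlap). In FG it had 6.28, 6.13 and 6.02 in hypoxia, against 6.29, 6.79 and 6.72 in normoxia, without overlap and without a call (-0.46 ± 0.17, limma adjusted p = 0.132). E2F1, the best known activator of G1/S transcription, had 7.06, 6.79 and 7.33 in L3.6pl hypoxia, against 7.56, 7.82 and 7.92 in L3.6pl normoxia, which did not overlap, with a change of -0.71 ± 0.27 that did not pass (limma adjusted p = 0.148). In FG its first hypoxia array was its highest value of the line, with 8.15, 7.10 and 7.02 in FG hypoxia, against 7.45, 7.61 and 7.75 in FG normoxia. CCND1, which codes for cyclin D1, had 8.63, 8.21 and 9.07 in L3.6pl hypoxia, against 8.60, 9.13 and 8.88 in L3.6pl normoxia, and 9.50, 9.13 and 9.15 in FG hypoxia, against 9.43, 9.66 and 9.89 in FG normoxia. Its changes of -0.23 and -0.40 stayed uncalled with and without the normoxia replicates 1. The other probe set of CCND1, nearly as intense (mean 8.97 against 9.11), changed by more, at -0.57 in L3.6pl and -0.97 in FG, so the size of its change is not settled. E2F8, an atypical E2F that represses E2F targets, had differences of -0.81 ± 0.40 in L3.6pl and -1.05 ± 0.40 in FG with all arrays, uncalled, and was called lower in both without those 2 arrays.

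**Figure D5:**
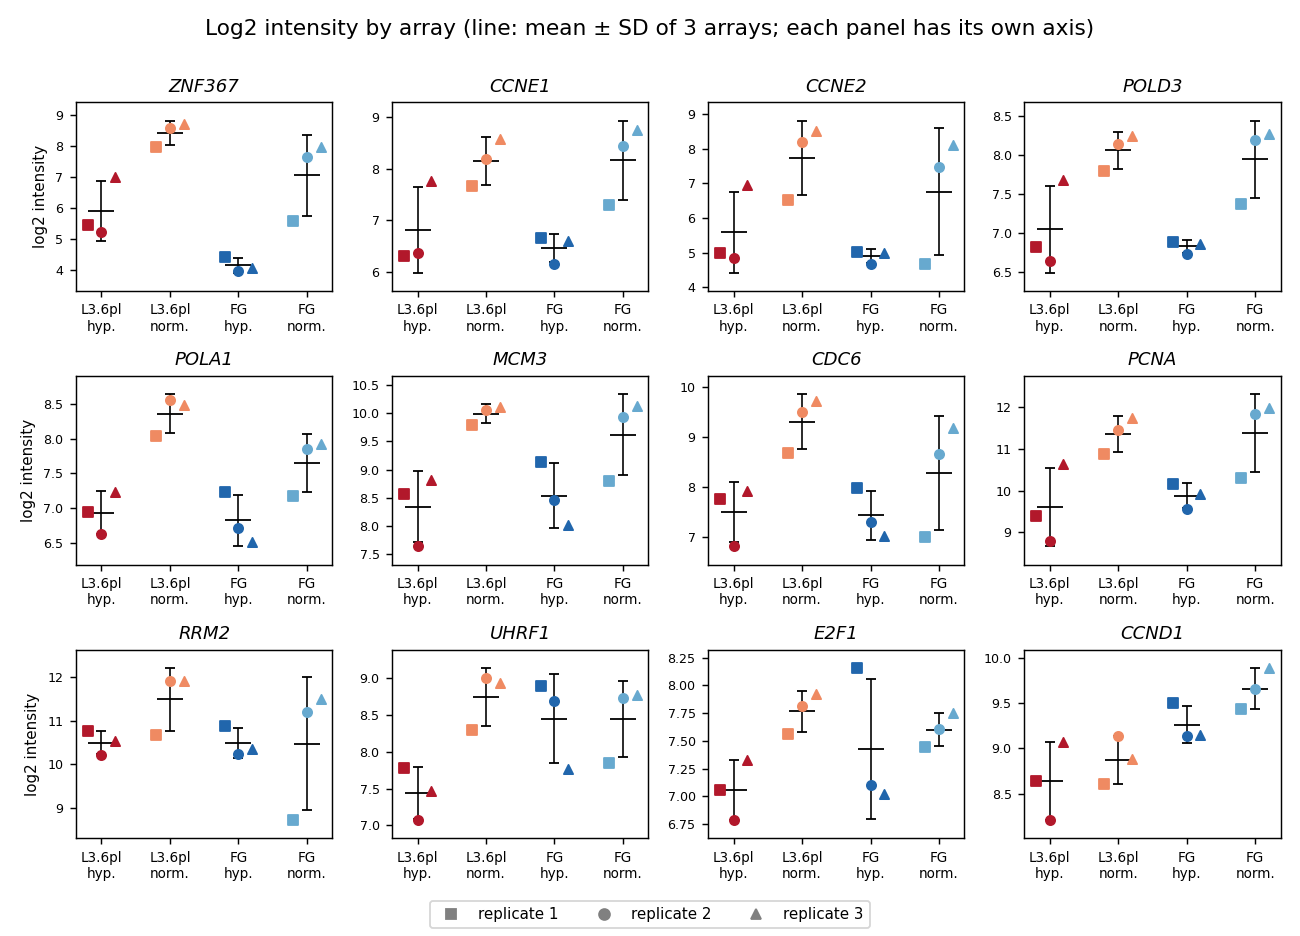
Log2 intensity of 12 of the genes by group, with mean ± SD of 3 arrays and squares, circles and triangles for replicates 1, 2 and 3. ZNF367 separates hypoxia from normoxia in both lines, and RRM2 and CCNE2 show a first FG normoxia array far below the other two.

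In L3.6pl, hypoxia lay below normoxia without overlap in all 6 MCM helicase genes. MCM3 had 8.57, 7.64 and 8.82 in L3.6pl hypoxia, against 9.80, 10.06 and 10.12 in L3.6pl normoxia, and fell by 1.65 (-1.65 ± 0.40, limma adjusted p = 0.0343). MCM2 had 9.89, 9.01 and 10.05 in L3.6pl hypoxia, against 11.10, 11.38 and 11.11 in L3.6pl normoxia, with a change of -1.55 ± 0.41 (limma adjusted p = 0.0480). These were the 2 helicase genes called, and changes of the other four ran from -1.83 in MCM6 to -1.05 in MCM4. In FG none of the 6 was called, 1 had an unadjusted limma p below 0.05, and in all 6 the groups overlapped. MCM3 had 9.14, 8.46 and 8.01 in FG hypoxia, against 8.79, 9.93 and 10.13 in FG normoxia (-1.08 ± 0.40, limma adjusted p = 0.123), and MCM2 had 10.02, 9.29 and 8.63 in FG hypoxia, against 9.23, 10.50 and 10.40 in FG normoxia (-0.73 ± 0.41). The first FG normoxia array lay within the range of the FG hypoxia arrays for 5 of the 6 helicase genes and below it for MCM5. Leaving out both normoxia replicates 1 gave 5 of 6 lower in L3.6pl and 2 of 6, MCM3 and MCM6, lower in FG.

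Of the 5 licensing genes none was called by limma in either line with all arrays, and 3 in L3.6pl and 0 in FG had an unadjusted p below 0.05. CDC6, which loads the helicase, had 7.75, 6.80 and 7.91 in L3.6pl hypoxia, against 8.68, 9.50 and 9.73 in L3.6pl normoxia, and 7.97, 7.29 and 7.0 in FG hypoxia, against 6.99, 8.66 and 9.17 in FG normoxia. Its L3.6pl groups did not overlap (change -1.81 ± 0.53, limma adjusted p = 0.0686), and its FG groups did, with the first normoxia array the lowest of the line. CDT1, the loading partner of CDC6, had small changes, with 7.61, 7.38 and 8.21 in L3.6pl hypoxia, against 8.15, 8.08 and 8.15 in L3.6pl normoxia, and 7.60, 7.63 and 7.65 in FG hypoxia, against 7.49, 7.81 and 8.15 in FG normoxia, and changes of -0.39 ± 0.20 in L3.6pl and -0.19 ± 0.20 in FG. GMNN, which codes for geminin, the inhibitor of CDT1, had 9.13, 8.55 and 9.80 in L3.6pl hypoxia, against 9.94, 10.57 and 10.79 in L3.6pl normoxia, without overlap (-1.27 ± 0.41, limma adjusted p = 0.0964). Its FG values were 9.65, 9.30 and 9.57 in hypoxia, against 9.14, 10.39 and 10.75 in normoxia, with overlap (-0.59 ± 0.41). The origin recognition subunits ORC1 and ORC6 had log2 differences of -0.70 and -1.26 in L3.6pl and of -0.36 and -0.62 in FG, none called. With those 2 arrays left out, 4 of 5 licensing genes were called lower in L3.6pl, CDT1 being the exception, and 1 of 5, CDC6, in FG.

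Origin firing genes had the lowest median change of the 7 roles in both lines, at -1.47 in L3.6pl and -1.28 in FG. CDC7, the kinase that phosphorylates the loaded helicase, had 6.34, 6.17 and 7.93 in L3.6pl hypoxia, against 8.25, 8.79 and 8.77 in L3.6pl normoxia, and fell by 1.79 (-1.79 ± 0.46, limma adjusted p = 0.0419). In FG it had 7.10, 6.85 and 6.71 in hypoxia, against 7.51, 8.78 and 8.84 in normoxia, again without overlap, and missed the threshold (-1.49 ± 0.46, limma adjusted p = 0.0632). L3.6pl hypoxia replicate 3 was far above the other two for this kinase, and the call held in 3 of the 12 fits that leave out 1 array. GINS1, a subunit of the active helicase, averaged 6.49 ± 0.39 in L3.6pl hypoxia and 8.53 ± 0.50 in L3.6pl normoxia (SD, n = 3), a call at the threshold (limma adjusted p = 0.0497). DBF4, the activating subunit of CDC7, had differences of -1.34 ± 0.39 in L3.6pl and -1.28 ± 0.39 in FG, and neither passed. MCM10, which is needed to start unwinding, had the third lowest change of all genes in L3.6pl (-2.25 ± 0.83) but a spread that left its limma adjusted p at 0.139. CDC45, GINS2 and GINS3 were uncalled in both lines, with changes from -1.47 to -1.35 in L3.6pl and from -0.86 to -0.27 in FG. All 7 were called lower in L3.6pl and 5 of 7 in FG without both normoxia replicates 1.

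POLA1, the catalytic subunit of the polymerase that starts each new strand, gave the firmest call in L3.6pl. It had 6.94, 6.63 and 7.24 in L3.6pl hypoxia, against 8.05, 8.56 and 8.49 in L3.6pl normoxia, with a gap between the groups and a fall of 2.70-fold (log2 change -1.43 ± 0.25, limma adjusted p = 0.00807). That call held in all 12 fits that leave out 1 array, with the highest limma adjusted p at 0.0468, and at an adjusted p below 0.01 it was the 1 call left among the 44. In FG it had 7.24, 6.71 and 6.51 in hypoxia, against 7.17, 7.85 and 7.93 in normoxia, where the lowest normoxia value lay below the highest in hypoxia (-0.83 ± 0.25, limma adjusted p = 0.0640). POLD3, an accessory subunit of polymerase delta, had 6.89, 6.73 and 6.87 in FG hypoxia, against 7.37, 8.20 and 8.27 in FG normoxia, and fell by 1.12 (-1.12 ± 0.29, limma adjusted p = 0.0307). Its L3.6pl values were 6.82, 6.64 and 7.68 in hypoxia, against 7.80, 8.14 and 8.25 in normoxia, with no overlap and a close miss (-1.01 ± 0.29, limma adjusted p = 0.0602). The catalytic subunits POLD1 and POLE had smaller differences, of -0.42 and -0.44 in L3.6pl and of -0.21 and -0.18 in FG, uncalled in both fits. POLE2, the accessory subunit of polymerase epsilon, had differences of -1.89 ± 0.62 in L3.6pl and -1.41 ± 0.62 in FG, and POLA2 of -1.21 ± 0.41 in L3.6pl and -1.10 ± 0.41 in FG, none called. Primase subunits PRIM1 and PRIM2 were at -0.78 and -0.29 in L3.6pl and at -0.42 and 0.01 in FG, and neither was called. The fit without both normoxia replicates 1 called POLA1, POLA2, PRIM1, POLD3 and POLE2 lower in both lines.

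PCNA, the sliding clamp that holds polymerases on DNA, was among the genes whose groups did not overlap in either line. It had 9.39, 8.79 and 10.63 in L3.6pl hypoxia, against 10.88, 11.44 and 11.72 in L3.6pl normoxia, and 10.17, 9.57 and 9.91 in FG hypoxia, against 10.30, 11.83 and 11.98 in FG normoxia. In each line the nearest arrays of the groups were close, and the changes of -1.74 ± 0.50 in L3.6pl and -1.49 ± 0.50 in FG missed the threshold (limma adjusted p = 0.0664 and 0.0914). FEN1, the nuclease that trims Okazaki fragments, was at -2.10 ± 0.59 in L3.6pl and -1.69 ± 0.59 in FG, with no overlap in either line and no call. LIG1, the ligase that seals those fragments, had uncalled differences of -0.39 in L3.6pl and -0.34 in FG. Clamp loader subunits RFC2, RFC3 and RFC4 had differences of -0.91, -1.43 and -1.07 in L3.6pl and of -0.31, -0.68 and -0.54 in FG, none called. RFC5 was the 1 gene of the 44 above 0 in L3.6pl (0.61 ± 0.21, limma adjusted p = 0.114), but its other 2 probe sets gave -1.02 and -1.03, so its direction is not settled. PCNA, FEN1, RFC3 and RFC4 were called lower in both lines in the fit without both normoxia replicates 1.

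RRM2, the small subunit of ribonucleotide reductase that supplies deoxynucleotides, was low on the first normoxia array of both lines. It had 10.75, 10.22 and 10.53 in L3.6pl hypoxia, against 10.66, 11.89 and 11.89 in L3.6pl normoxia, and 10.89, 10.24 and 10.36 in FG hypoxia, against 8.73, 11.19 and 11.50 in FG normoxia. FG normoxia replicate 1 was the lowest of the 12 arrays, and the other two FG normoxia arrays were above every FG hypoxia array. The change with all arrays was -0.98 ± 0.61 in L3.6pl and 0.02 ± 0.61 in FG, neither called. In the fit without both normoxia replicates 1 it was -1.39 in L3.6pl (limma adjusted p = 0.00568) and -0.85 in FG (limma adjusted p = 0.0355), so the FG value changed sign. UHRF1, which brings the maintenance DNA methyltransferase to new strands, had 7.77, 7.07 and 7.47 in L3.6pl hypoxia, against 8.29, 9.00 and 8.94 in L3.6pl normoxia, and fell by 1.30 (-1.30 ± 0.34, limma adjusted p = 0.0474). In FG its groups overlapped, with 8.90, 8.68 and 7.76 in hypoxia, against 7.85, 8.73 and 8.76 in normoxia, and the change was 0.00 ± 0.34. The chromatin assembly factor subunits CHAF1A and CHAF1B had differences of -0.50 and -0.59 in L3.6pl and of -0.11 and -0.30 in FG, uncalled.

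Set against their promoters, genes with E2F letters had a median change of -1.43 in L3.6pl hypoxia (n = 20), against -1.02 for genes without them (n = 18). In FG hypoxia these medians were -0.78 with the letters and -0.39 without. The ranges overlapped widely, from -2.51 to -0.39 with the letters and from -2.25 to 0.61 without in L3.6pl, and this is a description with no test. Without both normoxia replicates 1, the medians were -1.65 with the letters and -1.34 without in L3.6pl, and -1.33 and -0.97 in FG. Of the genes called in L3.6pl with all arrays, POLA1, ZNF367, MCM3, E2F2, UHRF1, MCM2 and GINS1 held the letters and CDC7 did not. Of the 3 called in FG, ZNF367 held them, CCNE1 did not, and POLD3 had no window. CDT1, with a match at -35, was called in neither line.

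Between the lines in hypoxia, none of the 44 genes was called in L3.6pl against FG in the fit without a block, where 16.7% of all genes were called in either direction, and 5 of 44 had an unadjusted limma p below 0.05. The median difference was 0.02, and it lay between -0.14 and 0.26 when 1 array was left out, so it has no settled direction. Arrays of the same number in the 2 lines deviated together within each oxygen condition, and with that number as a block within the condition limma called 5 of the 44, against 30.0% of all genes. These were ZNF367, higher (adjusted p = 0.0115), and GINS1 (0.0270), LIG1 (0.00744), UHRF1 (0.00688) and CCND1 (0.0246), lower. Without both normoxia replicates 1 that blocked fit called those 5 and PRIM1, higher at a limma adjusted p of 0.0490, against 29.8% of all genes. In the fit without a block ZNF367 was the furthest apart, at 5.47, 5.22 and 7.01 in L3.6pl hypoxia against 4.43, 3.99 and 4.07 in FG hypoxia, without overlap (1.74 ± 0.60, limma adjusted p = 0.0744). UHRF1 lay -1.01 on the log2 scale from FG (limma adjusted p = 0.0714), and LIG1 was at -0.58 ± 0.18 (limma adjusted p = 0.0503). These 3 were called, against 20.3% of all genes, without both normoxia replicates 1, which enter this comparison only through the shared estimate of the spread (ZNF367 higher at limma adjusted p = 0.0133, UHRF1 and LIG1 lower at 0.0307 and 0.0486).

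In normoxia, 1 of the 44 genes was called in L3.6pl against FG, against 10.7% of all genes in either direction. CCND1 was lower in L3.6pl, at 8.60, 9.13 and 8.88, against 9.43, 9.66 and 9.89 in FG normoxia, without overlap (-0.79 ± 0.22, limma adjusted p = 0.0436). The call was lost without both normoxia replicates 1 (limma adjusted p = 0.115) and in 9 of the 12 fits that leave out 1 array, where its highest limma adjusted p was 0.145. CCND1 also did not overlap between lines in hypoxia, where it was uncalled (-0.62 ± 0.22, limma adjusted p = 0.0813). Its other probe set differed between lines by -0.65 in normoxia and by -0.25 in hypoxia. Over the 44 genes the median difference in normoxia was 0.32 and it was above 0 in 35, with groups apart in 6 genes higher in L3.6pl (MCM2, MCM5, MCM7, POLA1, POLE and ZNF367) and 2 lower (CCND1 and LIG1), against 15.0% and 13.1% of all genes. Leaving out FG normoxia replicate 1 turned that median to -0.07, and leaving out FG normoxia replicate 3 gave 0.62. In the unblocked fit without both normoxia replicates 1 the median was 0.12, and 0 of the 44 were called, against 7.92% of all genes. With the replicate number as a block within the condition, limma called 15 of the 44, against 23.1% of all genes. There 13 were higher, against 12.2% of all genes (MCM2, MCM5, MCM7, ORC6, CDC6, GINS3, POLA1, PRIM1, RFC2, RFC4, RRM2, CHAF1B and ZNF367), and CCND1 and LIG1 were lower, at adjusted p = 0.0114 and 0.0143. Leaving both normoxia replicates 1 out of the blocked fit gave 5 calls, against 15.9% of all genes, with MCM7, PRIM1 and RRM2 higher and GINS1 and LIG1 lower, and CCND1 at a limma adjusted p of 0.0588.

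Whether these genes differed between hypoxia and normoxia by unequal amounts in the 2 lines was tested by the interaction, the change in L3.6pl minus the change in FG. None of the 44 was called in limma, where 0.0253% of all genes were, and 2 had an unadjusted p below 0.05. UHRF1 was at -1.30 ± 0.49 (limma adjusted p = 0.546) and RFC5 at 0.76 ± 0.30 (limma adjusted p = 0.592). Other probe sets of RFC5 changed by -1.02 and -1.03 in L3.6pl and by -0.37 and -0.10 in FG, so the sign of its interaction is not settled. The median interaction over the 44 was -0.42, with 38 below 0, and -0.22 without both normoxia replicates 1. Leaving out 1 array moved it between -0.75 (FG normoxia replicate 3 left out) and -0.02 (FG normoxia replicate 1 left out). The block within each condition also gave 0 calls. Thus the larger number of calls in L3.6pl is not shown to be a difference between the lines.

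Other genes of the pathway were read from further lists. Of 33 measured replication genes outside the 44, 4 fell in L3.6pl hypoxia (against 2.97% of all genes) and 3 in FG hypoxia (against 6.47%), none rose, and the medians were -0.75 in L3.6pl and -0.36 in FG. TOPBP1, a scaffold needed for origin firing, fell in both, with 8.88, 8.82 and 8.94 in L3.6pl hypoxia, against 9.75, 10.00 and 9.87 in L3.6pl normoxia (-0.99 ± 0.16, limma adjusted p = 0.00457), and 8.38, 8.49 and 8.45 in FG hypoxia, against 9.02, 9.65 and 9.68 in FG normoxia (-1.01 ± 0.16, limma adjusted p = 0.00296). The nuclease and helicase DNA2 fell by 1.54 in L3.6pl and by 1.36 in FG. SLBP, which binds histone mRNA, and CLSPN, which codes for the checkpoint adaptor claspin, fell in L3.6pl (-0.78 and -0.95), and RPA1, of the single-strand binding complex, fell in FG (-0.66). DUT and RPA3, the most intense uncalled genes of that list, had differences of -0.13 and -0.65 in L3.6pl and of -0.16 and -0.14 in FG.

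The 25 measured G1/S control genes moved in both directions. In L3.6pl hypoxia 1 rose and 3 fell, against 3.89% and 2.97% of all genes, and in FG hypoxia 2 rose and 7 fell, against 4.24% and 6.47% of all genes. CDK4, the kinase partner of cyclin D, fell in both lines, with 10.24, 9.94 and 10.85 in L3.6pl hypoxia, against 11.23, 11.22 and 11.43 in L3.6pl normoxia (-0.95 ± 0.20, limma adjusted p = 0.0178), and 9.85, 9.65 and 10.11 in FG hypoxia, against 10.91, 10.91 and 11.01 in FG normoxia (-1.08 ± 0.20, limma adjusted p = 0.00719). The first normoxia array of each line lay beside its group for this gene. TFDP1, the dimerisation partner of E2F factors, also fell in both, by 0.91 in L3.6pl and 0.85 in FG. SKP2, the ubiquitin ligase subunit that marks p27 protein for destruction, fell by 1.15 in L3.6pl, where CDKN1B, which codes for p27, rose by 0.86 (limma adjusted p = 0.00581). In FG, SKP2 was also lower without overlap, at 8.49, 8.45 and 8.70 in hypoxia, against 9.16, 9.94 and 9.95 in normoxia. CDKN1B overlapped in FG, at 9.48, 9.34 and 9.69 in hypoxia, against 9.58, 9.37 and 9.34 in normoxia. A link between the 2 genes was not tested. E2F5 and E2F6, which repress transcription, fell in FG by 1.02 and 0.80. The 2 that rose in FG, named after their values were seen, were the CDK inhibitor genes CDKN1A at 1.55 and CDKN1C at 1.31. CDKN1A was also higher without overlap in L3.6pl, uncalled, at 8.48, 9.99 and 9.49 in hypoxia, against 8.04, 7.65 and 8.24 in normoxia. CDKN1C overlapped in L3.6pl, at 5.38, 5.79 and 6.44 in hypoxia, against 5.55, 5.14 and 5.46 in normoxia. With both normoxia replicates 1 left out, 1 G1/S control gene rose and 10 fell in L3.6pl, against 5.29% and 5.65% of all genes, and 2 rose and 9 fell in FG, against 4.69% and 6.95% of all genes.

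Between the lines, RB1, the retinoblastoma gene, was lower in L3.6pl in hypoxia (-0.66 ± 0.12, limma adjusted p = 0.00282) and in normoxia (-0.84 ± 0.12, limma adjusted p = 0.00101), and CDK6, the second kinase partner of cyclin D, was higher in both (0.86 and 0.74). RB1 had 9.18, 9.45 and 9.24 in L3.6pl hypoxia against 10.18, 9.92 and 9.76 in FG hypoxia, and 9.31, 9.39 and 9.24 in L3.6pl normoxia against 10.13, 10.19 and 10.12 in FG normoxia. Its groups did not overlap between the lines in either condition.

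None of the 30 mitosis genes was called in either line with all arrays, and 3 in L3.6pl and 0 in FG had an unadjusted limma p below 0.05. Their median change was -0.74 in L3.6pl, with 30 of 30 below 0, and -0.07 in FG, with 20 of 30 below 0. TOP2A and PTTG1, the most intense of them, had differences of -0.40 ± 0.49 and -0.41 ± 0.56 in L3.6pl and of 0.44 ± 0.49 and 0.12 ± 0.56 in FG. Without both normoxia replicates 1, 25 of 30 were called lower in L3.6pl and 14 of 30 in FG, against 5.65% and 6.95% of all genes. FG normoxia replicate 1 lay more than 1 log2 unit below the mean of the other FG normoxia arrays in all 30. Removing it therefore widens the FG difference by construction. Medians of the mitosis genes in that fit were -1.03 in L3.6pl and -0.75 in FG. The corresponding medians of the 44 genes were -1.49 and -1.07, and the difference between the lists was not tested.

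Probe sets of a gene did not always move alike. Of the 44 genes, 22 had more than 1 probe set, and their signs disagreed in FG for CCNE1, CHAF1A, MCM4 and RRM2 and in L3.6pl for CHAF1A, GINS2, MCM4 and RFC5. For CCNE1 the other probe set was dim, at a mean of 4.25 against 7.39, and changed by 0.04 in FG. RRM2's other probe set changed by -0.64 in FG with all arrays, where the one used changed by 0.02. Probe sets of ORC6, CDT1, CHAF1A and ZNF367 carry a suffix that marks probes shared with other transcripts, so their values are uncertain to that extent.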

How the data were processed

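The authors deposited linear intensities of 54675 probe sets, which RMA produced per the submitters' processing notes, in a version not given in the sources used here. Their log2 was taken with no further normalization. Gene names came from the platform annotation, updated by gene number, leaving out 1801 with several genes, 11721 with none and 62 controls. One linear model with 4 group means was fitted over all 19775 genes with limma 3.58.1 in R 4.3.3 (eBayes, 8 residual and 2.72 prior degrees of freedom), with Benjamini-Hochberg adjustment over all genes and calls at an adjusted p below 0.05. With 3 arrays against 3, the smallest exact two-sided p is 0.1. The fit was tested on simulated data with independent noise for each gene and array. That simulation lacked the shifts of whole arrays described above, so it does not speak to them. The 44 genes, the further lists and the 2 arrays left out together were chosen with earlier results of these data known.

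Genes given array by array are, in each comparison and direction, up to 5 called of the 44 with the smallest adjusted p, and always PCNA, MCM2, CDC6, CDT1, GMNN, CCND1, CCNE1, CCNE2, E2F1, RRM2, UHRF1 and ZNF367. From each further list, up to 4 called and 2 uncalled genes were named. Some genes of the further lists are not reported here. Files give no detection calls. Alternatives were other normalizations, a dim-gene filter, probe sets averaged per gene, an intensity trend, array weights, a stricter threshold, only the 2 groups compared, each array left out and replicate numbers as a block. Deviations from the group means of same-numbered arrays of the 2 lines correlated at 0.36, 0.44 and 0.46 in hypoxia and at 0.73, 0.53 and 0.68 in normoxia, so a block within each oxygen condition was added for comparisons between lines after seeing the data. Such arrays of hypoxia and normoxia correlated above 0.1 for replicate 3 alone.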

Additional observations from a re-analysis of the deposited data

How the results depend on the processing

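Counts of the 44 genes called moved with the processing as follows, and the cause was not tested beyond what each setting removes. In L3.6pl hypoxia against normoxia, 8 calls became 34 without both normoxia replicates 1, 41 with array weights and 1 at an adjusted p below 0.01, with 1 to 25 when single arrays were left out. In FG hypoxia against normoxia, 3 calls became 23 without both normoxia replicates 1, 28 with array weights, 7 with the replicate number as a block and 0 at an adjusted p below 0.01, with 0 to 20 when single arrays were left out. In L3.6pl against FG in hypoxia, 0 calls became 3 without both normoxia replicates 1, 4 with array weights, 2 with cyclic loess or with arrays centred on their median, and 1 with the replicate block, the dim-gene filter, probe sets averaged per gene or only the 2 groups compared, with 0 to 3 when single arrays were left out. In L3.6pl against FG in normoxia, 1 call became 0 without both normoxia replicates 1, with an intensity trend and robust moderation and at an adjusted p below 0.01, 11 with array weights and 2 with only the 2 groups compared, with 0 to 1 when single arrays were left out. The lowest array weights were 0.253 for L3.6pl hypoxia replicate 3 and 0.310 for FG normoxia replicate 1. The highest were 5.68 for FG normoxia replicate 2 and 3.94 for L3.6pl normoxia replicate 2. Each normoxia mean in the weighted fit thus rests largely on 1 array. The share of all genes called with array weights is not given here, so those counts have no background beside them. The interaction gave 0 calls under every setting run. RRM2 in FG reversed, from 0.02 with all arrays to -0.85 without both normoxia replicates 1, and lay between -0.85 and 0.53 when single arrays were left out. When single arrays were left out, the median change over the 44 lay between -1.49 and -0.995 in L3.6pl hypoxia, -1.07 and -0.31 in FG hypoxia, -0.14 and 0.26 between lines in hypoxia, -0.07 and 0.62 between lines in normoxia, and -0.75 and -0.02 for the interaction. The labels do not say that replicate numbers pair the samples, and one block over all arrays gave 12 calls in L3.6pl hypoxia against normoxia, with 7 genes gained and 3 (MCM2, GINS1 and UHRF1) lost. With the replicate block within each oxygen condition, added after seeing the data, L3.6pl against FG gave 5 calls in hypoxia and 15 in normoxia, and 6 and 5 without both normoxia replicates 1. The number of arrays limits all values, and no file gives a background level for a probe set.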
